A study of Homo sapiens with 18 samples.

Results

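Library names in this RNA sequencing series end in a code, and the 5 libraries of code-14.04 were set against the 6 of code-1109, 11 of the 18 libraries in all. Each code-14.04 library came from cells given water, 193 nM morphine, 169 nM metamorphine, 200 nM beta-endorphin or 200 nM naloxone, and code-1109 has those 5 treatments and 200 nM TRV130. Every library was made from the human neuroblastoma line SH-SY5Y, kept for 7 days in 10 µM all-trans retinoic acid (ATRA) and exposed to the treatment for 15 min. The remaining 7 libraries have the code-0409. They entered the scaling of CPM values, and otherwise the comparison only where named. The labels do not say what the code stands for, nor that libraries sharing it were grown apart, and p-values here therefore reflect library-to-library spread alone. Whatever the code marks, from the state of the cells to the making of the libraries, cannot be told apart from the code. The comparison asks how far libraries with the same treatment label differ between the codes, with treatment as a covariate and 5 treatment-matched pairs.

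SH-SY5Y cells derive from the sympathoadrenal lineage of the neural crest and carry the noradrenergic transcription factors of that lineage. Retinoic acid acts through nuclear receptors, slows division of these cells and promotes the outgrowth of neurites. Ribosomal protein, proteasome and respiratory chain messages are short and abundant, whereas ion channels, guidance receptors and synaptic scaffolds are encoded by long ones.

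The libraries held 25.1 ± 2.84 x 1e6 counts in code-14.04 and 25.2 ± 3.43 x 1e6 in code-1109 (SD, n = 5 and 6, exact permutation test, two-sided, p = 0.944), and no pair of the 11 was identical. Fewer genes reached 1 CPM (counts per 1e6 counts of the library) in code-14.04, 17840 ± 139, against 18830 ± 290 in code-1109 (exact permutation p = 0.00216, adjusted over 9 library measures 0.00487). With 5 against 6 libraries 0.00216 is the smallest p this test can give. The first principal component held 70.1% of the variance and the second 7.4%. All 5 code-14.04 libraries lay on one side of the first component and all 6 code-1109 libraries on the other. The noradrenergic markers HAND2, GATA3 and DBH were present in every library of both codes. TH, which encodes the first enzyme of catecholamine synthesis, had 0 to 5 counts in code-14.04 libraries and 0 to 3 in code-1109 libraries.

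Of 21255 genes tested, 13312 passed an adjusted p of 0.05, which is 62.6%. In code-14.04, 6601 genes were higher (31.1%) and 6711 lower (31.6%), and these shares are the background for every gene group below. The median size of a called difference was 0.65 on the log2 scale. Differences above 2-fold were more often reductions, with 874 genes higher and 2314 lower. All 5 treatment pairs gave the same direction for 12069 of the called genes. Against a 1.5-fold change 17.9% of genes passed, and 1486 genes (6.99%) were higher in code-14.04 and 2324 (10.9%) lower. Every code-14.04 library lay above every code-1109 library for 5089 genes (23.9%) and below for 4491 (21.1%).

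The direction followed the length of the message. Among protein-coding genes whose principal transcript has 500 to 1000 bases, 69.6% were higher in code-14.04 and 12.7% lower, with a median difference of 0.68 (log2, 897 genes). Among those over 8000 bases, 9.02% were higher and 60.7% lower, with a median of -0.37 (965 genes). The relation was not steady at the short end. Up to 500 bases 45.9% were higher and 21.1% lower, with a median of 0.30 (109 genes), smaller than at 500 to 1000 bases. The median had the same sign in all 5 treatment pairs in each of the 6 length classes. Below 40% GC the shares were 51.5% higher and 11.3% lower, and above 60% GC they were 25.1% higher and 44.3% lower. Across 13079 genes, which are not independent replicates, Spearman's rho of the difference was -0.44 with transcript length and -0.28 with GC content, as a description. Transcripts under 1000 bases took 16.5% ± 0.61 of the counts in code-14.04 and 13.5% ± 1.23 in code-1109 (SD, n = 5 and 6, exact permutation p = 0.00433, adjusted 0.00779). Transcripts over 8000 bases took 4.98% ± 0.43 and 7.35% ± 0.65 (adjusted exact permutation p = 0.00487). The share under 1000 bases overlaps those of ribosomal protein and mitochondrially encoded messages, given below, whose median lengths were 790 and 784 bases. For each named gene whose difference moved by more than 1.5-fold, or whose call was lost, when the GC content and length of the principal transcript were corrected for, the corrected value is therefore given too, a choice made after the values were seen. With this correction 58.8% of tested genes were called, 29.0% higher and 29.9% lower, and 10314 genes were called in both fits, 77.5% of the 13312 uncorrected calls and 82.5% of the 12506 corrected ones, 189 of them with the opposite sign. A correction that used the length of all exons in place of the principal transcript called 59.2%, 28.8% higher and 30.4% lower. What in the cells or libraries set the length relation was not tested.

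**Figure D1:**
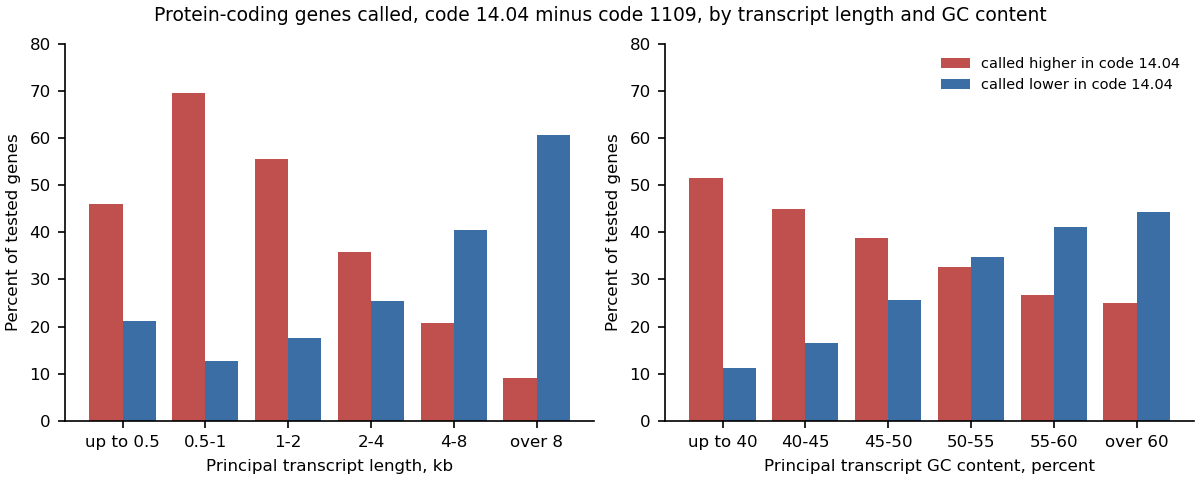
Percent of tested protein-coding genes called higher (red bars) and lower (blue bars) in code-14.04 than in code-1109, by principal transcript length in kb (left panel) and GC content in percent (right panel). Of transcripts of 500 to 1000 bases 69.6% were higher, and of those over 8000 bases 60.7% were lower.

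Gene types differed as well. Of 14467 protein-coding genes 36.3% were higher in code-14.04 and 29.3% lower. Processed pseudogenes, copies of spliced messages, were higher in 37.7% and lower in 26.8% of 761. Of 180 sense-intronic genes 94 were lower and 17 higher, and of 235 miRNA genes 132 were lower and 28 higher. Of 122 snoRNA genes, which mostly lie in introns, 44 were lower (36.1%, near the background) and 11 higher. Unprocessed pseudogenes, which are duplicates of genes, were lower in 105 and higher in 12 of 215. Those annotated as transcribed, a separate class, were lower in 189 and higher in 41 of 361. Antisense genes were lower in 891 and higher in 503 of 2572, but the counts carry no strand, so reads of a gene and its antisense partner cannot be told apart.

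The cytosolic ribosomal protein genes, which encode the protein part of the ribosome, were higher in code-14.04 in all 79 cases, with a median difference of 1.12 (log2) against -0.01 over all tested genes. Their summed share of the counts was 8.52% ± 0.95 in code-14.04 and 4.19% ± 0.73 in code-1109 (SD, n = 5 and 6, adjusted exact permutation p = 0.00487). The code-14.04 libraries ran from 7.36% to 9.53% and code-1109 libraries from 3.42% to 5.34%, with no overlap. With the length and GC correction all 79 stayed higher, with a median of 0.91. The 5 treatment pairs gave list medians of 1.24 for water, 0.55 for morphine, 1.06 for metamorphine, 1.20 for beta-endorphin and 1.56 for naloxone.

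Ribosomal protein messages are known for a pyrimidine tract at their first bases, through which their translation is controlled. The start sites of 4 named members are printed for that reason, with 15 bases on each side of the RefSeq start (GRCh38.p14) and with capitals marking the letters CTTTC or CTTTT. They lie at chr17:74203663-74203692 (+) for RPL38, chr11:809952-809981 (+) for RPLP2, chr1:6199581-6199610 (-) for RPL22 and chr1:23691764-23691793 (+) for RPL11.
RPL38: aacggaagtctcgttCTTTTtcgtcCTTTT
RPLP2: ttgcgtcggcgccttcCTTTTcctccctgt
RPL22: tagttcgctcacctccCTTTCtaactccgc
RPL11: cgcctcctggcccataaggccctcggccgg
Either motif stood on the gene's strand in 41 of 63 matched ribosomal protein genes (65.1%) and on the other strand in 1. It stood on the gene's strand in 1 of 38 respiratory chain genes (2.63%), 2 of 29 proteasome genes (6.9%) and 2064 of all 27305 RefSeq promoters (7.56%). RPL11 had no match in this window. A match describes the letters only.

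RPL38, a protein of the large subunit (GRCh38 chr17:74203582-74210655), had 597 CPM with water, 473 with morphine, 523 with metamorphine, 460 with beta-endorphin and 529 with naloxone in code-14.04. In code-1109 it had 200.2, 234, 185, 149.8, 146 and 142 CPM, in the order water, morphine, metamorphine, TRV130, beta-endorphin and naloxone, which is the order used below, TRV130 being absent from code-14.04. Even the lowest code-14.04 library lay far above the highest code-1109 library. The difference was 1.53 ± 0.12 (log2, SE, edgeR adjusted p = 1.76e-05), and 1.25 with the correction. RPLP2, a stalk protein, differed by 1.12, and RPL22 and RPL11 by 1.19 each.

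Nuclear genes for the respiratory chain and ATP synthase were also higher in code-14.04. Of 49 tested, 45 were higher in code-14.04 and 0 lower, with a median of 0.90, and 47 were higher after the correction, with a median of 0.72. NDUFB3, a small complex I subunit, averaged 35.1 ± 5.73 CPM in code-14.04 and 11.9 ± 1.86 CPM in code-1109 (SD, n = 5 and 6), a difference of 1.5 ± 0.12 (log2, SE). NDUFS6 and NDUFA2, also of complex I, differed by 1.40 and 1.36. The proteasome, the protease that degrades ubiquitin-tagged proteins, was higher in 31 of 34 genes and lower in 0, with a median of 0.67 (0.48 corrected). PSMB3, a subunit of its core, averaged 85.8 ± 10.0 CPM in code-14.04 and 42.1 ± 7.91 CPM in code-1109.

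Messages of the mitochondrial genome went the other way. Of 13, 12 were lower in code-14.04 and 0 higher, with a median of -0.85, and with the correction the median was -1.17. They encode subunits of complexes I, III, IV and V, which the nuclear list also covers, while complex II is built from nuclear genes alone. MT-ND4, a complex I subunit, had 4773, 9051, 4540, 6499 and 3458 CPM in code-14.04, against 16590, 10410, 7589, 10190, 10660 and 10760 CPM in code-1109. The codes overlapped, since the morphine library of code-14.04 lay above the metamorphine library of code-1109. The difference was -1.02 ± 0.24 (log2, SE, edgeR adjusted p = 0.00328). MT-ND3 did not pass, at 0.06. All mitochondrially encoded genes together took 6.59% ± 1.88 of the counts in code-14.04 and 10.9% ± 2.55 in code-1109 (SD, n = 5 and 6, adjusted exact permutation p = 0.0111). The list median ranged from -1.64 in the water pair to -0.06 in the morphine pair. Without the water library of code-1109, 10 of the 13 were lower, with a median of -0.68.

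**Figure D2:**
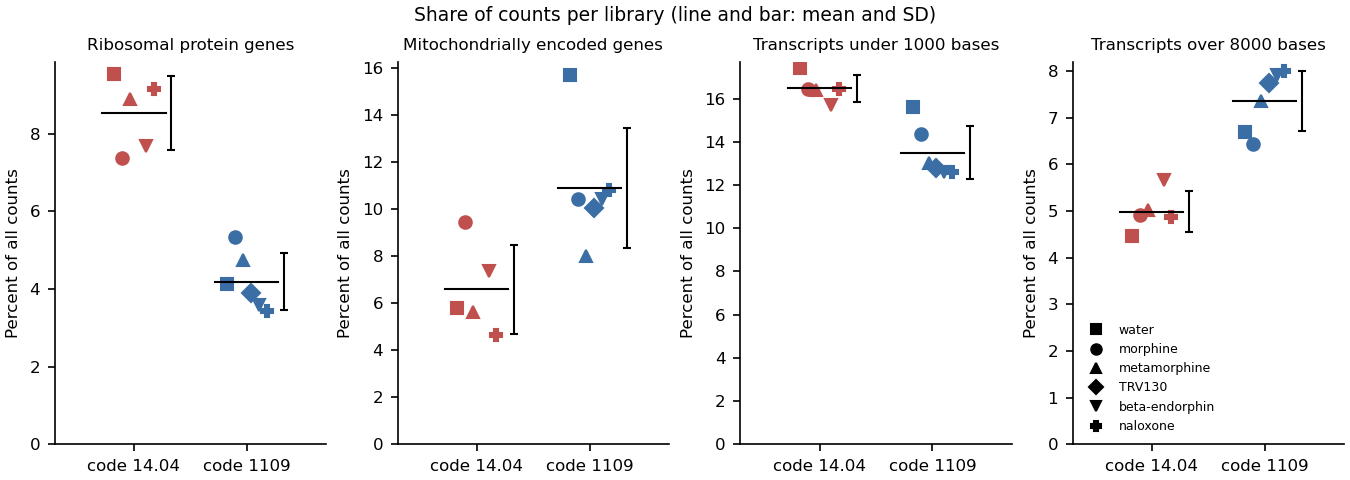
Share of counts in ribosomal protein genes, mitochondrially encoded genes and long or short transcripts, 1 point per library with the mean and SD of each code (5 code-14.04 libraries left, 6 code-1109 libraries right). Ribosomal protein shares of 7.36% to 9.53% in code-14.04 lie above all those of code-1109, while the mitochondrial shares overlap.

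Cell cycle genes were mostly higher in code-14.04. Of 54 genes of G2 and mitosis 41 were higher and 2 lower, with a median of 0.55 (0.38 corrected). UBE2C, which serves the anaphase-promoting complex, had 61.2, 45.9, 44.0, 41.3 and 51.0 CPM in code-14.04, against 21.9, 22.6, 22, 20.3, 17.6 and 19.2 CPM in code-1109. Each code-14.04 library lay above all 6 code-1109 libraries, and the difference was 1.23 ± 0.09 (log2, SE, edgeR adjusted p = 1.67e-05). PTTG1, the securin that holds back sister separation, differed by 1.32, BIRC5, a subunit of the chromosomal passenger complex, by 1.12, and NUSAP1, a spindle protein, by 0.84 (0.47 corrected). MKI67, the long message of the proliferation marker Ki-67, went the other way. It had 46.4, 53.7, 51.4, 73.3 and 46.6 CPM in code-14.04, against 68.0, 67.1, 91.8, 93.7, 96.6 and 92.9 CPM in code-1109. The codes overlapped through the beta-endorphin library of code-14.04. Its difference of -0.62 ± 0.10 (edgeR adjusted p = 0.000367) was -0.01 with the correction (adjusted p = 0.953).

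Genes of G1/S and DNA replication were higher in 24 and lower in 6 of 43, with a median of 0.34. PCNA, the sliding clamp of DNA polymerase, averaged 135 ± 13.2 CPM in code-14.04 and 71.3 ± 12.1 CPM in code-1109, a difference of 0.91 (0.54 corrected). POLE, the catalytic subunit of a leading-strand polymerase and a long message, was lower, at -0.96 (-0.29 corrected). SLBP, which binds histone messages, and TYMS, which makes thymidylate, were higher by 0.64 and 0.73, the second by 0.49 with the correction. The p53 targets and cell cycle inhibitors were higher in 18 and lower in 3 of 30, among them the inhibitors CDKN2D at 1.16 and CDKN2C at 0.89 and the death effector BAX at 0.78. TNFRSF10B, a death receptor, was lower, at -0.60. Replication-dependent histone genes were higher in 14 and lower in 2 of 29 tested of 54 listed. H2BC8 differed by 1.06, and H1-2 by 0.95. These messages mostly lack a poly(A) tail, so their counts also depend on how the libraries were made.

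Genes of the neuronal cytoskeleton and growth cone were higher in 16 and lower in 5 of 31, with a median of 0.24, and in 20 and 2 with the correction. GAP43, a growth cone phosphoprotein, had 34.0, 34.9, 33, 31.3 and 36.6 CPM in code-14.04, against 18.6, 24.4, 20.6, 21.7, 19.4 and 17.7 CPM in code-1109. STMN2, a tubulin-binding protein of growing axons, had 624, 551, 645, 612 and 662 CPM in code-14.04, against 304, 490.3, 394, 355, 323 and 315 CPM in code-1109. Neither gene's codes overlapped, and the differences were 0.76 ± 0.09 for GAP43 (edgeR adjusted p = 6.34e-05, 0.51 corrected) and 0.78 ± 0.13 for STMN2 (adjusted p = 0.000375, 0.46 corrected). TUBB3, the neuronal beta-tubulin, was higher by 0.35, and BASP1, a membrane protein of the growth cone, by 0.74. MAP1A, a large microtubule-associated protein, was lower, at -1.04 (-0.29 corrected).

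**Figure D3:**
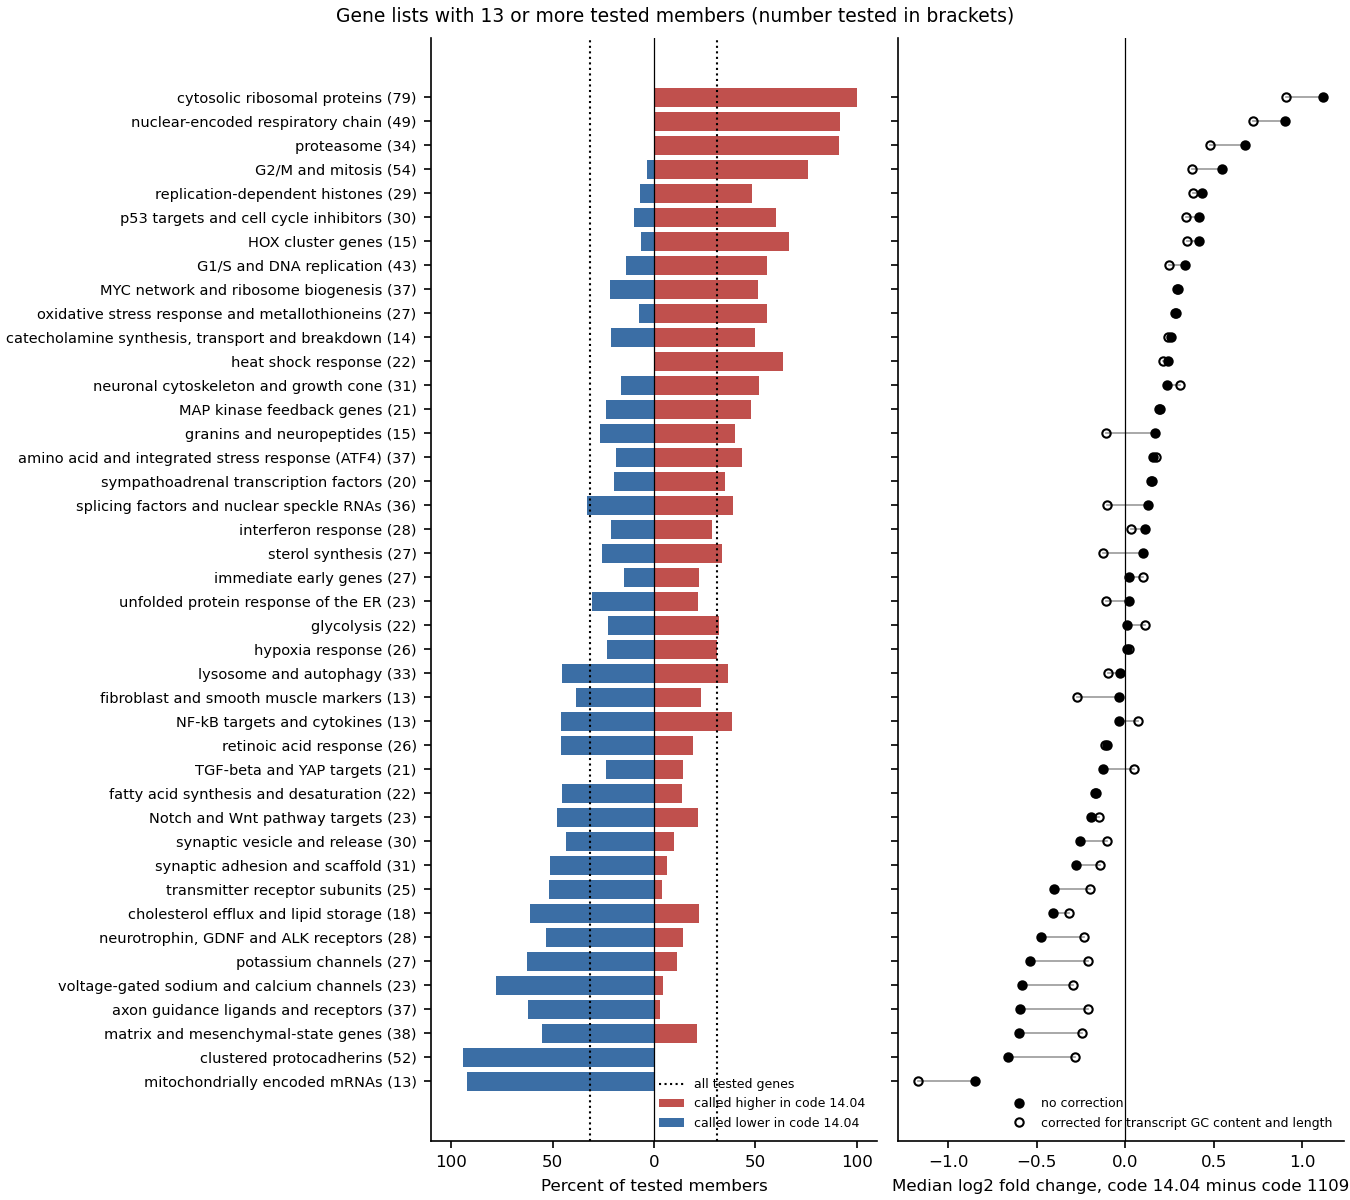
Left panel, percent of tested members called higher (red, to the right) and lower (blue, to the left) in code-14.04 for each gene list with 13 or more tested members, with dotted lines at the shares of all tested genes. Right panel, median log2 difference of each list, code-14.04 minus code-1109, without (filled) and with (open) the length and GC correction. Ribosomal protein genes reach 79 of 79 higher, and 49 of 52 protocadherins were lower.

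Ion channel genes were mostly lower in code-14.04, and genes of the synapse were more often lower than higher. Voltage-gated sodium and calcium channel genes were lower in 18 and higher in 1 of 23 (median -0.58), and potassium channel genes lower in 17 and higher in 3 of 27 (median -0.54). With the correction 13 were lower in each list, and the medians were -0.29 and -0.21. SCN9A, a sodium channel of peripheral neurons, had 12.4, 16, 12.9, 17.2 and 15.7 CPM in code-14.04, against 20.7, 24.5, 24.5, 25.7, 25.4 and 26.6 CPM in code-1109. Each code-14.04 library was below all 6 of code-1109, with a difference of -0.72 ± 0.08 (edgeR adjusted p = 5.72e-05, -0.65 corrected). CACNA1B, the pore of the N-type calcium channel, differed by -1.06 (-0.22 corrected), and KCNC4, a fast potassium channel, by -1.54 (-1.26 corrected). KCNMB4, a short message for an accessory subunit of the large-conductance channel, was higher by 0.75.

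Synaptic vesicle and release genes were lower in 13 and higher in 3 of 30, and synaptic adhesion and scaffold genes lower in 16 and higher in 2 of 31. Their medians of -0.26 and -0.28 became -0.10 and -0.14 with the correction, when 8 and 12 genes were lower and 4 and 5 higher. Over all tested genes 29.9% were lower in the corrected fit. The 8 of 30 vesicle and release genes did not exceed that share. BSN, which encodes the giant active zone protein bassoon, differed by -1.33, and by -0.10 with the correction (adjusted p = 0.288). SHANK1, a scaffold of the postsynaptic density, differed by -1.24 (-0.30 corrected). Axon guidance genes were lower in 23 and higher in 1 of 37, with a median of -0.59 (-0.21 corrected). The netrin receptor UNC5B had 145, 174, 161, 212 and 181 CPM in code-14.04, against 358, 293, 342, 376, 416 and 391 CPM in code-1109. The groups did not overlap, and its difference of -1.05 ± 0.09 (edgeR adjusted p = 2.1e-05) was -0.31 with the correction.

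Clustered protocadherins, adhesion proteins made in combinations that mark single neurons, were lower in 49 of 52 genes and higher in 0, with a median of -0.66. All 15 beta genes and all 22 gamma genes were lower, and 12 of 15 alpha genes. The alpha genes share their last exons with each other, as the gamma genes do, so their counts are not independent and single alpha or gamma genes cannot be told apart here. The beta genes are single-exon genes. After the correction 37 of the 52 were lower, with a list median of -0.29. These were 15 beta, 22 gamma and 0 alpha genes. The beta median went from -0.75 to -0.70 with the correction, the gamma median from -0.66 to -0.29 and the alpha median from -0.23 to -0.06. PCDHB12 averaged 2.52 ± 0.45 CPM in code-14.04 and 7.72 ± 1.81 CPM in code-1109, a difference of -1.53 ± 0.17 (log2, SE), and PCDHB13 differed by -1.54.

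Receptors of transmitters were lower in 13 and higher in 1 of 25 tested, with a median of -0.40, and 11 and 2 with a median of -0.20 after the correction. OPRM1, the mu opioid receptor at which morphine acts (GRCh38 chr6:154010496-154246867), had 4.91, 5.88, 6.05, 8.16 and 5.35 CPM in code-14.04, against 19.4, 13.6, 20.9, 20.6, 15.8 and 15.9 CPM in code-1109. OPRD1, the delta opioid receptor (GRCh38 chr1:28812142-28871267), had 43.5, 59.1, 50.5, 73.1 and 54.6 CPM in code-14.04, against 187, 91.7, 166, 143, 110.5 and 119.9 CPM in code-1109. For both receptors every code-14.04 library lay below every code-1109 library. The difference was -1.49 ± 0.15 for OPRM1 (log2, SE, edgeR adjusted p = 2.98e-05) and -1.23 ± 0.21 for OPRD1 (adjusted p = 0.000692). With the correction OPRM1 differed by -1.75 and OPRD1 by -0.54 (adjusted p = 0.025). OPRM1 overlaps IPCEF1 on the opposite strand, and reads in the overlap cannot be assigned to a strand. OPRL1, the nociceptin receptor, had 15.8 to 20.9 CPM in code-14.04 and 16 to 19.7 CPM in code-1109 and did not pass (0.05 ± 0.08, adjusted p = 0.582). With the correction it was higher by 0.40 (adjusted p = 0.00124). OPRK1, the kappa receptor, had 0 to 1 count in code-14.04 libraries and 0 to 4 in code-1109 libraries and was not tested. CHRNB4, a nicotinic receptor subunit of autonomic ganglia, differed by -0.96, and CHRM3, a muscarinic receptor, by -0.69.

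**Figure D4:**
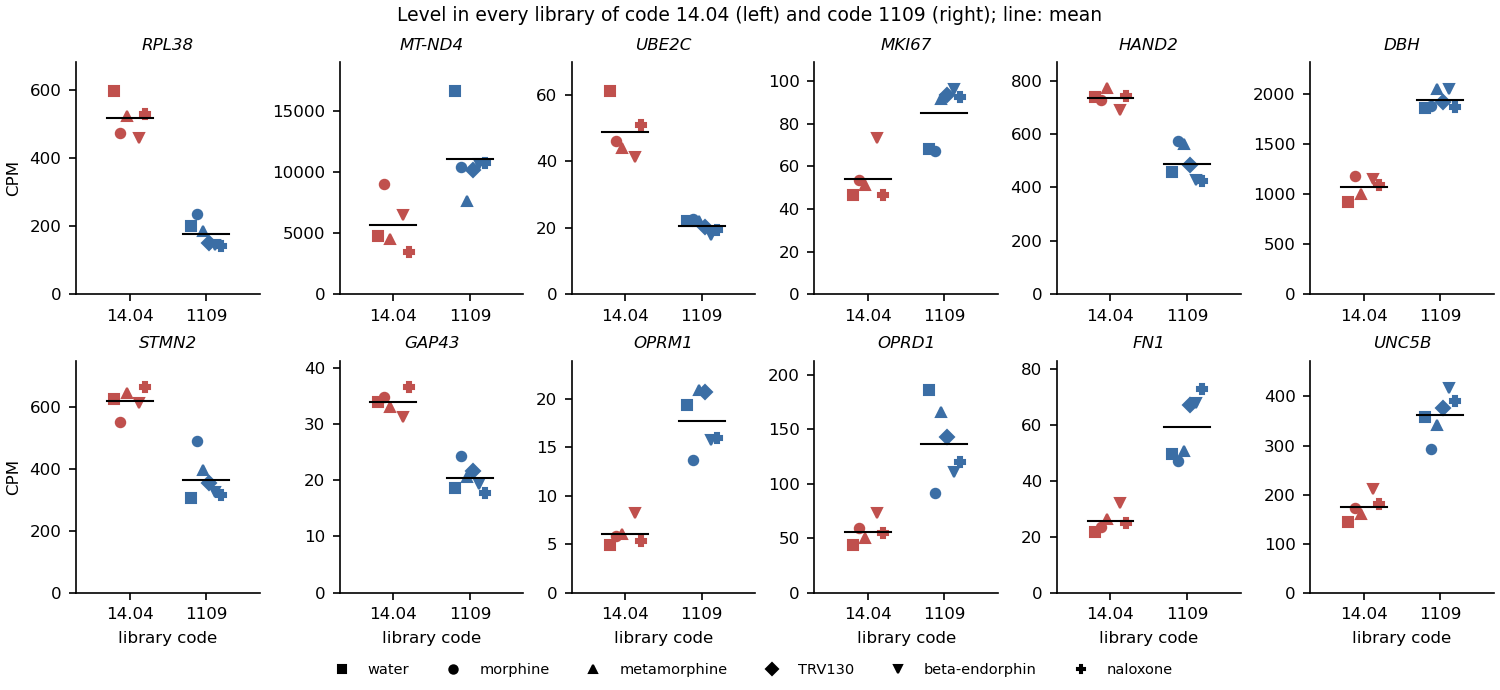
CPM of 12 named genes in every library on linear axes from 0, code-14.04 left and code-1109 right in each panel, with the symbol marking the treatment and the line the mean of the code. Both opioid receptors lie lower in every code-14.04 library, and the mitochondrial message and Ki-67 overlap between codes.

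Genes of sympathoadrenal identity did not move as a block. Among the transcription factors 7 were higher and 4 lower of 20 tested, with a median of 0.14. HAND2 had 741, 727, 773, 691 and 744 CPM in code-14.04, against 458, 574, 561, 485, 429 and 424 CPM in code-1109, a difference of 0.60 ± 0.10 (edgeR adjusted p = 0.000322). The codes did not overlap. TFAP2B, a transcription factor of the neural crest, was lower, at -0.43 (-0.20 corrected). GATA3 did not pass, with 127 ± 15.5 CPM in code-14.04 and 125 ± 11.4 CPM in code-1109, nor did MYCN, at 0.30 (adjusted p = 0.156). HAND2 overlaps an antisense gene.

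The catecholamine pathway split between its steps, with 7 genes higher and 3 lower of 14. DBH, the enzyme that turns dopamine into noradrenaline, had 919, 1175, 994.7, 1150 and 1085 CPM in code-14.04, against 1858, 1876, 2047, 1917, 2042 and 1863 CPM in code-1109. The codes did not overlap, and the difference was -0.87 ± 0.11 (edgeR adjusted p = 7.09e-05, -0.45 corrected), in a gene that overlaps the antisense gene DBH-AS1. SLC6A2, the noradrenaline transporter, was lower, at -1.03 (-0.82 corrected). PTS and QDPR, which make and recycle the cofactor of aromatic hydroxylases, were higher by 1.01 (0.64 corrected) and 0.77. Among granins and neuropeptides 6 were higher and 4 lower of 15, with a median of 0.17 that was -0.11 with the correction. GAL, the galanin precursor, was higher by 0.68 and NPY by 0.58, and VGF, a secreted neuropeptide precursor, was lower, at -0.87 (-0.57 corrected).

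Retinoic acid response genes also went both ways, with 5 higher and 12 lower of 26 (median -0.10). CYP26A1, which degrades retinoic acid and is a classic target of its receptors, had 395 ± 56.5 CPM in code-14.04 and 422 ± 113 CPM in code-1109 and did not pass (-0.10 ± 0.12, adjusted p = 0.489). The retinoic acid-binding protein CRABP1, a short message, was higher by 0.98. RARB, a retinoic acid receptor induced by its own ligand, was higher by 0.39 (adjusted p = 0.00188, 0.16 corrected). NAV2, a neurite outgrowth gene, and STRA6, the retinol uptake receptor, were lower, at -1.36 (-0.70 corrected) and -1.09. HOX genes, which mark position along the body axis, were higher in 10 and lower in 1 of 15. HOXC9 was higher by 0.74 and HOXD8 by 0.71, and HOXD4 was the lower one, at -0.96. Exons of HOXC9 overlap HOXC6 on the same strand and HOXC-AS2 on the opposite strand. Exons of HOXD4 overlap another gene on the same strand. The values of HOXC9 and HOXD4 could hold reads of the overlapping genes.

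Matrix and mesenchymal-state genes were lower in 21 and higher in 8 of 38, with a median of -0.60 (-0.24 corrected). FN1, fibronectin, had 21.8, 23.4, 26.3, 32.2 and 24.9 CPM in code-14.04, against 49.4, 46.9, 50.7, 67.1, 67.9 and 72.8 CPM in code-1109. The codes did not overlap, with a difference of -1.15 ± 0.10 (edgeR adjusted p = 1.92e-05, -0.70 corrected). The collagens COL3A1 and COL4A1 were lower, at -1.26 and -0.99 (-0.90 and -0.44 corrected). LGALS1, a short message for a secreted galectin, was higher by 1.22, averaging 198 ± 31.2 CPM in code-14.04 and 84.0 ± 12.6 CPM in code-1109. VIM, the intermediate filament vimentin, did not pass, with 123 ± 11.4 CPM in code-14.04 and 123 ± 6.46 CPM in code-1109. Growth factor receptors were lower in 15 and higher in 4 of 28, with a median of -0.47 (-0.24 corrected). They include ALK, a receptor kinase of neuroblastoma, at -1.15 (-0.55 corrected), IGF1R at -1.12 (-0.45 corrected) and PDGFRB at -1.12 (-0.57 corrected). The Notch receptors NOTCH2 and NOTCH3 were lower, at -1.20 and -1.44, and at -0.59 and -0.45 with the correction, in a Notch and Wnt list with 11 lower and 5 higher of 23.

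Early response genes showed no common direction, with 6 higher and 4 lower of 27. FOS, which responds within minutes to stimulation, had 463, 234, 268, 331 and 331 CPM in code-14.04, against 410.4, 147, 139, 141, 294 and 351 CPM in code-1109. The codes overlapped, and the water library was the highest of each code. Its difference of 0.37 ± 0.14 (edgeR adjusted p = 0.0341) did not pass when 1 of 6 libraries was left out (water, morphine, metamorphine or beta-endorphin of code-1109, morphine or metamorphine of code-14.04), at 0.21 to 0.41, nor with the correction (0.29, adjusted p = 0.109). EGR1 did not pass (-0.12, adjusted p = 0.397). JUN and JUND, partners of FOS, were higher by 0.82 and 0.77, and EGR3 was lower, at -1.56. CXCR4, a chemokine receptor, had 8.87, 9.83, 8.03, 7.88 and 8.90 CPM in code-14.04, against 5.48, 6.73, 5.63, 5.69, 5.77 and 5.79 CPM in code-1109. Its difference of 0.56 (adjusted p = 0.000791) was 0.23 with the correction (adjusted p = 0.0779). MAP kinase feedback genes were higher in 10 and lower in 5 of 21, including the phosphatase DUSP1 at 0.67.

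Stress and metabolic lists were mixed. Heat shock genes were higher in 14 and lower in 0 of 22 (median 0.24), led by the mitochondrial co-chaperonin HSPE1 at 1.39, which shares a promoter region with HSPD1. Oxidative stress genes were higher in 15 and lower in 2 of 27, with the ferritin chains FTH1 at 0.91 and FTL at 0.89 and thioredoxin, TXN, at 1.14. ATF4 targets were higher in 16 and lower in 7 of 37, ATF4 itself by 0.80. MYC network and ribosome biogenesis genes were higher in 19 and lower in 8 of 37, among them the nucleolar proteins FBL at 0.95 and GAR1 at 0.99 (0.65 corrected). The list medians for glycolysis (7 higher, 5 lower of 22), hypoxia response (8 and 6 of 26) and the unfolded protein response (5 and 7 of 23) were 0.01, 0.01 and 0.02. LDHA and LDHB, which interconvert pyruvate and lactate, were higher by 0.72 and 0.97 (0.41 and 0.58 corrected), and SLC2A1, a glucose transporter, was lower, at -0.55 (-0.30 corrected). Cholesterol efflux and lipid storage genes were lower in 11 and higher in 4 of 18, with the cholesterol exporters ABCA1 at -1.35 and ABCG1 at -1.21. Fatty acid genes were lower in 10 and higher in 3 of 22, and FASN, fatty acid synthase, differed by -1.19 (-0.14 corrected, adjusted p = 0.177). Sterol synthesis genes were higher in 9 and lower in 7 of 27, and 4 and 8 with the correction.

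The remaining lists were interferon response, higher in 8 and lower in 6 of 28, NF-kB targets, 5 and 6 of 13 with SOD2 counted under 2 gene IDs, and lysosome and autophagy, 12 and 15 of 33. TGF-beta and YAP targets were higher in 3 and lower in 5 of 21, and glucose-sensing genes in 3 and 2 of 9. Splicing factors and nuclear speckle RNAs were higher in 14 and lower in 12 of 36, and 8 and 14 with the correction. In that list MIAT, a long noncoding RNA, was lower, at -1.86 (-1.23 corrected), as were SRRM2, a speckle scaffold, at -1.37 (-0.63 corrected) and OGT, the nuclear O-GlcNAc transferase, at -0.94, while the splicing factor SRSF3 was higher by 0.79. Of 4 tested structured small RNAs 1 was lower and 0 higher.

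Of the markers of other cell types, those of fibroblasts and smooth muscle were present at high levels. They summed to 3714 to 4603 CPM in code-14.04 and 2679 to 3428 CPM in code-1109, with 3 of 13 higher and 5 lower. Most of that sum was RGS5, a regulator of G protein signalling, and PDGFRA averaged 135 CPM in code-14.04 and 205 CPM in code-1109. Summed immune markers held 10.5 to 14.7 CPM in code-14.04 and 12.7 to 18.8 CPM in code-1109, with 1 of 6 tested lower. Epithelial markers held 19.0 to 32.3 and 30.7 to 46.5 CPM, with 4 of 10 lower. Endothelial markers held 27.2 to 36.6 and 31.3 to 38.6 CPM, with 3 of 5 lower. Schwann cell and glial markers held 20.8 to 22.4 CPM in code-14.04 and 21.6 to 23.8 CPM in code-1109, with 1 of 9 higher and 2 lower. All 14 erythroid and liver markers averaged under 1 CPM, and none was tested. The part of these markers in the results was not tested.

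The 15 protein-coding genes with the largest increases were mostly short messages. RPS29, of the small ribosomal subunit, was higher by 1.92, CKS2, a cyclin-dependent kinase adaptor, by 1.71, ATP5F1E, a subunit of ATP synthase, by 1.68 and SNRPG, a core protein of spliceosomal particles, by 1.6. TRABD2A had 32.4, 34.2, 40.1, 31.2 and 27.7 CPM in code-14.04, against 11.2, 11.4, 10.8, 11.5, 8.03 and 8.58 CPM in code-1109, a difference of 1.73 ± 0.09 (edgeR adjusted p = 6.79e-06). It overlaps TMSB10, a short and abundant message on the opposite strand, and reads of the overlap cannot be assigned. RPS27AP5, a ribosomal protein gene copy, led at 2.18 but may share reads with RPS27A. Outside these 15, PFDN2, a chaperone subunit for new actin and tubulin, was higher by 1.40 and TMA7 by 1.44, both among the smallest p-values of higher genes.

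**Figure D5:**
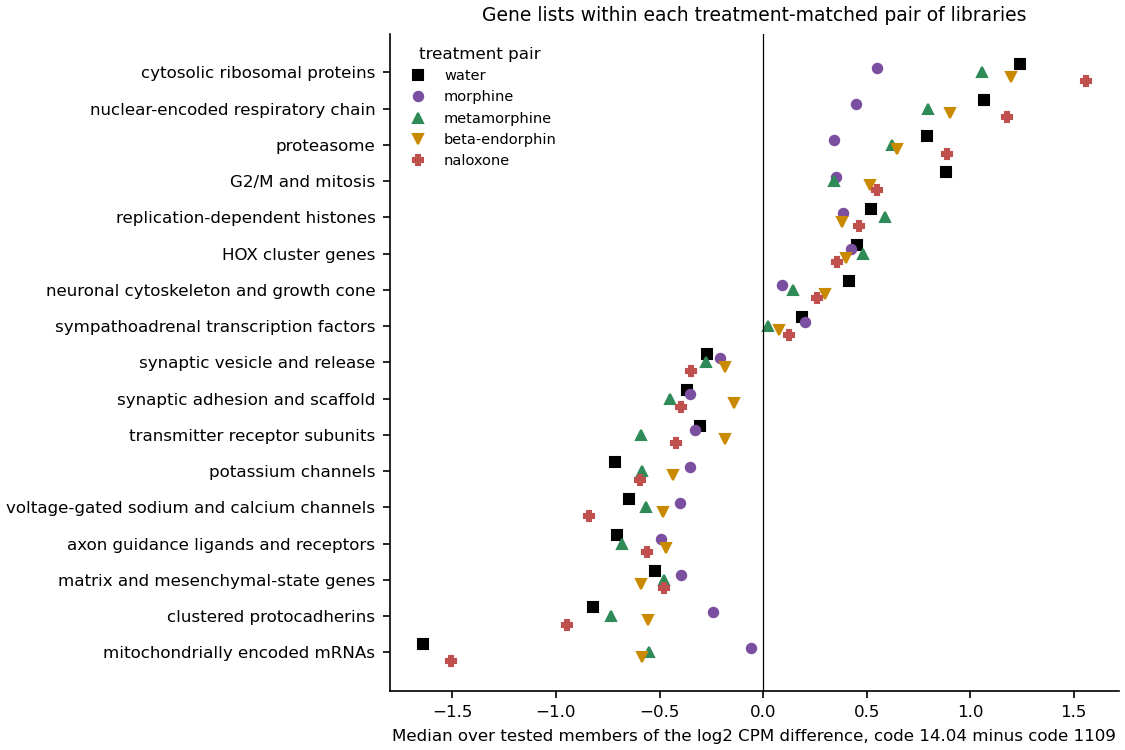
Log2 difference of code-14.04 minus code-1109 in each of the 5 treatment pairs for selected gene lists (1 point per pair, the median over tested members, in log2 CPM). The ribosomal protein median is above 0 in all 5 pairs, and the mitochondrial median runs from -1.64 with water to -0.06 with morphine.

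The 15 genes with the largest reductions were at low levels in code-14.04, from 0.371 CPM for SPDYE2 to 6.97 CPM for SSPOP. CDHR5, a cadherin of the intestinal brush border, had 0.258, 0.307, 0.283, 0.804 and 0.347 CPM in code-14.04, against 18.4, 1.85, 5.02, 6.5, 4.56 and 5.10 CPM in code-1109, a difference of -3.84 ± 0.41 (log2, SE, edgeR adjusted p = 4.14e-05). The codes did not overlap, although the water library of code-1109 stood far above the other 5. SLC34A3, a renal phosphate transporter, differed by -3.43 ± 0.22 and BLK, a B cell kinase, by -2.92 ± 0.20. SPDYE2 and SPDYE5 belong to a family of near-identical copies, and their values of -3.53 and -2.47 are uncertain. PVRIG shares exons with STAG3 on the same strand, so its -2.40 may hold reads of both. Among the smallest p-values of reduced genes were MIR432 at -1.82 and MIR136 at -1.91, precursors within the locus of RTL1, and ERV3-1, an endogenous retroviral gene that overlaps ZNF117, at -1.92. These 3 values could hold reads of the overlapping gene.

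The code difference varied in size between treatments. The SD over genes of the difference within a pair was 1.05 (log2) for water, 0.91 for naloxone, 0.81 for metamorphine, 0.74 for beta-endorphin and 0.56 for morphine. Whether the difference in the water pair departed from that in the 4 ligand pairs was tested as an interaction. Water has 1 library per code, so the test sets a single pair against the spread of the other treatments, and a library that stands apart cannot be told apart from an effect of water. With edgeR 0 of 21255 genes passed (0.00%), 1270 had an unadjusted p under 0.05, and the smallest adjusted p was 0.0898. DESeq2 called 19. The smallest p-values belonged to MALAT1, a nuclear long noncoding RNA, and MT-RNR1, the mitochondrial 12S ribosomal RNA. MALAT1 had 95.7, 116, 77.7, 119.8 and 75.2 CPM in code-14.04, against 1515, 201, 193, 220.1, 242 and 249 CPM in code-1109. Its value in the water library of code-1109 stood apart, and the interaction was -2.80 ± 0.32 (log2, SE, adjusted p = 0.0898). MT-RNR1 had 832 to 1095 CPM in code-14.04, against 4671 CPM in the water library of code-1109 and 874 to 1132 CPM in its other 5, with an interaction of -2.23 ± 0.27. MAGED4 and SMIM11 were high in the water library of code-14.04, with 13.5 and 12.1 CPM, and had interactions of 3.07 and 3.22 (adjusted p = 0.220 and 0.310).

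The 7 libraries of code-0409 were not used to call genes. Their mean lay between those of code-14.04 and code-1109 for 10038 of the 13312 called genes (75.4%). The same held for all 30 genes named for the largest differences. These genes were chosen for a difference between code-14.04 and code-1109, and that choice itself favours a code-0409 mean between them. No share for genes that were not called is given beside it, so the 75.4% cannot show that code-0409 was intermediate. RPL38 had a median of 266 CPM there, and OPRM1 one of 10.7 CPM. Other genes lay outside the range, such as GAP43, with a code-0409 median of 39.8 CPM, and TUBB3, with 790.3 CPM, both above the medians of code-14.04 and code-1109. CXCR4 had a code-0409 median of 16.5 CPM, also above both.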

How the data were processed

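Raw read counts per Ensembl gene were deposited by the authors for 18 libraries. The labels' protocols give TRIzol extraction, DNase I treatment and unstranded libraries. The authors' tools, per the submitters' processing notes, were FastQC, HISAT2, featureCounts and DESeq2 with GRCh38 (hg38), with versions, settings and annotation not given in the sources used. The 11 libraries of code-14.04 and code-1109 were compared in edgeR 4.0.16 (R 4.3.3), with filterByExpr at a minimum count of 10 (21255 of 58735 genes), TMM scaling and the robust quasi-likelihood test with treatment and code in the model (4 residual degrees of freedom). TRV130 has no code-14.04 library, so the code difference rests on 5 treatment pairs, and the treatment term is the pairing. Two-sided p-values were adjusted over every tested gene (Benjamini-Hochberg), with a threshold of 0.05. CPM values of genes and lists are deposited counts over library sizes scaled by TMM across all 18 libraries. The number of genes reaching 1 CPM and the shares of counts used unscaled library totals. Differences within pairs and principal components used TMM over the 11 libraries. At the median, the 95% interval of a difference extended 0.196 (log2) to each side for 12018 genes of at least 10 CPM, and it covers the spread between libraries only.

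Positions, lengths and GC content came from GENCODE 29 (GRCh38), and start sites from RefSeq (GRCh38.p14). Symbols came from a separate list of gene names, or from GENCODE 29 where that list had none. Library measures were compared by an exact permutation test that ignored the treatment pairing and included the TRV130 library. GC content and length were corrected by smooth per-library offsets (mgcv 1.9.3). Lists, 49 in all, are described by counts and medians and were not tested as sets. The genes named are, by rule, the 15 with the largest difference each way (protein-coding, at least 5 CPM in the higher code, same direction in all 5 pairs), up to 4 called members of each list with the smallest p, the 5 smallest p-values each way, 19 marker genes, and the 5 smallest interaction p-values each way. Some genes that the rule names are not reported here. MT-ND3, OPRK1, OPRL1 and RGS5 were named after their values were seen. The compared libraries and the lists were chosen with earlier results of these data known. Alternatives were RLE scaling, no filter, DESeq2 1.42.0, all 18 libraries, no treatment term, the offsets, and each library or treatment left out. The script was tested on simulated data.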

Additional observations from a re-analysis of the deposited data

Results flagged for a closer look

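Of 152 groups of 5 or 6 libraries checked, 16 had a library whose gap to its nearest neighbour, over the range of the group, passed the 95% critical value of Dixon's test. Chance passes about 1 in 20 groups of samples drawn alike, but most of these genes were chosen by their values. MALAT1, MT-RNR1, CYP2T1P, MAGED4 and SMIM11 were chosen for a departure of the water pair, so the 16 cannot be read against that rate.

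In code-14.04, the beta-endorphin library was highest for CDHR5 (gap ratio 0.837, 0.804 CPM) and MKI67 (0.729, 73.3 CPM). The morphine library of code-14.04 was highest for PNPLA7 (0.714, 5.61 CPM) and lowest for RARB (0.806, 93.8 CPM). The water library of code-14.04 was highest for MAGED4 (0.91, 13.5 CPM) and SMIM11 (0.734, 12.1 CPM).

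In code-1109, the water library was highest for the mitochondrially encoded share of counts (gap ratio 0.638, 15.7%), MALAT1 (0.958, 1515 CPM), MT-RNR1 (0.932, 4671 CPM) and CYP2T1P (0.849, 8.2 CPM). That library was also highest for CDHR5 (0.719, 18.4 CPM), SPDYE2 (0.759, 12.2 CPM), SPDYE5 (0.727, 14.6 CPM) and PNPLA7 (0.687, 23.3 CPM). The morphine library of code-1109 was lowest for RNF224 (0.751, 6.26 CPM) and highest for CXCR4 (0.751, 6.73 CPM).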

How the results depend on the processing

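The count of 13312 called genes stayed within 1.5 times under each alternative run except the test against a 1.5-fold change, and leaving out single libraries gave 11288 to 14402. Against a 1.5-fold change 3810 genes passed, 1486 higher and 2324 lower in code-14.04. Without the low-count filter the median of all genes was -0.29. The interaction count of 0 became 59 without the filter, 19 with DESeq2 and 3 with GC content and exon length offsets. The cause was not tested. The treatment term pairs libraries of 1 treatment, and without it 13131 calls were shared, 98.6% of the 13312 and 93.9% of the 13985 made without it.

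The difference in total counts (-0.131 x 1e6) was 0.362 x 1e6 without the TRV130 library and ran from -1.04 to 0.976 x 1e6 with single libraries left out. The long noncoding share (-0.144 percentage points, adjusted p = 0.0390) missed the threshold without the TRV130 library, at -0.144, and ran from -0.170 to -0.112 with single libraries left out. TXNIP, FADS2 and ALDH1L1 were called in the main fit, at 0.277, -0.650 and -0.570. Exon length offsets turned TXNIP to -0.0246, FADS2 to 0.0192 and ALDH1L1 to 0.152. With principal transcript offsets TXNIP was 0.0719 (edgeR adjusted p = 0.328), FADS2 -0.253 (adjusted p = 0.0106) and ALDH1L1 -0.274 (adjusted p = 0.196). Of genes that did not pass, GATA3 was 0.0484 without the filter, 0.0350 with 18 libraries, 0.0167 without the treatment covariate, 0.110 with principal transcript offsets, 0.0743 without both water libraries, 0.0137 without both naloxone libraries and -0.0537 to 0.0509 with single libraries left out. VIM was 0.0326, 0.00276 and 0.00211 under the first 3 of these, 0.0609 without both beta-endorphin libraries and -0.0792 to 0.0630 with single libraries left out. CYP26A1 was 0.0267 without both naloxone libraries and -0.173 to 0.0333 with single libraries left out. EGR1 was 0.0897 with principal transcript offsets. MAGED4 was -0.206 without both water libraries and -0.240 to 0.752 with single libraries left out. Depth limits genes such as OPRK1 and TH, with at most 5 counts.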
